A study of Homo sapiens with 6 samples.

Results

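A set of 10 genes read as reporters of signalling through the extracellular signal-regulated kinases (ERK1 and ERK2) was examined in 12Z cells treated with chemerin. The 10 were chosen by name as genes that ERK activity induces, with earlier results of these data known. They comprise 4 dual-specificity phosphatases (DUSP1, DUSP4, DUSP5 and DUSP6) and 3 inhibitors of the Sprouty and SPRED family (SPRY2, SPRY4 and SPRED1). The other 3 are early response genes (EGR1, IER3 and PHLDA1). All 10 were among the 16279 genes of the deposited tables, and all 10 passed the filter on low counts that left 13311 genes for testing. 12Z is an established human epithelial cell line derived from endometriosis, labelled as endometrial epithelial cells. RNA-seq was performed on 12Z cells left without treatment (Control, labelled NC, 3 libraries) or treated with 10 ng/mL recombinant human chemerin for 48 h (rhChem157S, labelled rhChemerin, 3 libraries). The protein ends at Ser157, the active form of this secreted chemoattractant and adipokine. Cells of both groups were kept in DMEM/F-12 medium with serum, and serum itself contains growth factors. A vehicle for the Control cells was not given in the sources used here. All libraries come from 1 line, and the labels call them biological replicates without saying how the cultures were separated, so p-values measure only the spread between these libraries.

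Growth factor receptors and many G protein-coupled receptors switch on the small GTPase RAS, which activates the kinases RAF, MEK and ERK in turn. ERK then phosphorylates transcription factors, and immediate early genes such as EGR1 are transcribed within minutes, without the need for new protein. Part of this response is negative feedback. Nuclear and cytoplasmic DUSPs take the phosphates off ERK and related kinases, whereas Sprouty and SPRED proteins act upstream at RAS and RAF, and the mRNAs of these inhibitors are widely read as a record of recent ERK activity. ERK activity itself was not measured here. The treated libraries are all from 48 h, so a response within minutes was not sampled.

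The libraries held 35430881 to 38341643 counts each, so the depth was nearly even and 1 count was worth at most 0.0298 CPM. CPM are counts scaled to a common library total, here adjusted by TMM factors, which ranged from 0.898 to 1.05 and were lowest in rhChem157S replicate 3. That library also lay farthest out on the first principal component, at 45.0, against 15.4 and -6.15 in the other rhChem157S libraries and -20.7 to -13.6 in the Control libraries. The epithelial markers summed to 2623 to 3092 CPM in the Control group and 3139 to 3607 CPM in the rhChem157S group, nearly all of it KRT8, KRT18 and KRT19. MUC1 had 1020 to 2070 counts, while EPCAM had 7 to 45 counts and CDH1 (E-cadherin) 15 to 65 counts in any library. The fibroblast and stromal markers summed to 8224 to 10864 CPM in the Control group and 6805 to 11900 CPM in the rhChem157S group, of which COL1A1 alone had 161176 to 264475 counts. The mRNAs of these epithelial keratins and MUC1 were thus present in every library beside abundant collagen mRNA, and EPCAM and CDH1 mRNA were near absent. The endothelial markers summed to at most 12.6 CPM and the endometrial markers to at most 12.8 CPM. For leukocytes the sum was 169 to 273 CPM, nearly all of it CD68 and CD14, but the defining marker PTPRC had 4 to 12 counts. CD68 had 4231 to 8265 counts. CD14 had 2787, 2308 and 2032 counts in the Control libraries, against 1241, 843 and 379 in the rhChem157S libraries. Its log2 fold change was -1.49 (DESeq2 adjusted p = 0.000511), beside 6% of all genes called lower by DESeq2. CD3E and MS4A1 were not analysed here. By immunoblot the study detected E-cadherin, MUC1, both estrogen receptors and the progesterone receptor as protein in 12Z cells. RNA-seq does not measure protein.

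The 10 genes did not move as a block between the groups. EGR1 had a higher CPM in each rhChem157S library than in each Control library, PHLDA1 and DUSP6 had the largest fold changes but 1 rhChem157S library at the Control level, and the other 7 had log2 fold changes between -0.41 and 0.68. With edgeR's quasi-likelihood test and Benjamini-Hochberg adjustment over all genes, 0 of the 10 had an adjusted p under 0.05, against 4 of 13311 genes, or 0.0301%, in either direction. At an unadjusted p under 0.05, EGR1, PHLDA1 and DUSP6 were higher and 0 of the 10 were lower. Of all genes 11.4% were higher at that level. DESeq2, the tool of the study, gave an adjusted p under 0.05 for 1 of the 10, EGR1, which was higher, beside 4.58% of all genes. Groups that did not overlap in CPM were seen for 1 of the 10, again EGR1, beside 32.5% of all genes in either direction. A single gene does not set the 10 apart from these shares. The median log2 fold change (rhChem157S over Control, edgeR) was 0.37 over the 10 genes, with 9 above 0 and 1 below, and 0.01 over all genes tested, of which 51.7% were above 0. With the library totals as the only scale the median of all genes was -0.12, and SPRED1 (-0.0045) and IER3 (-0.094) were below 0 as well. In bulk RNA, a change in the number of cells that express a gene and a change in the mRNA per cell cannot be told apart.

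**Figure D1:**
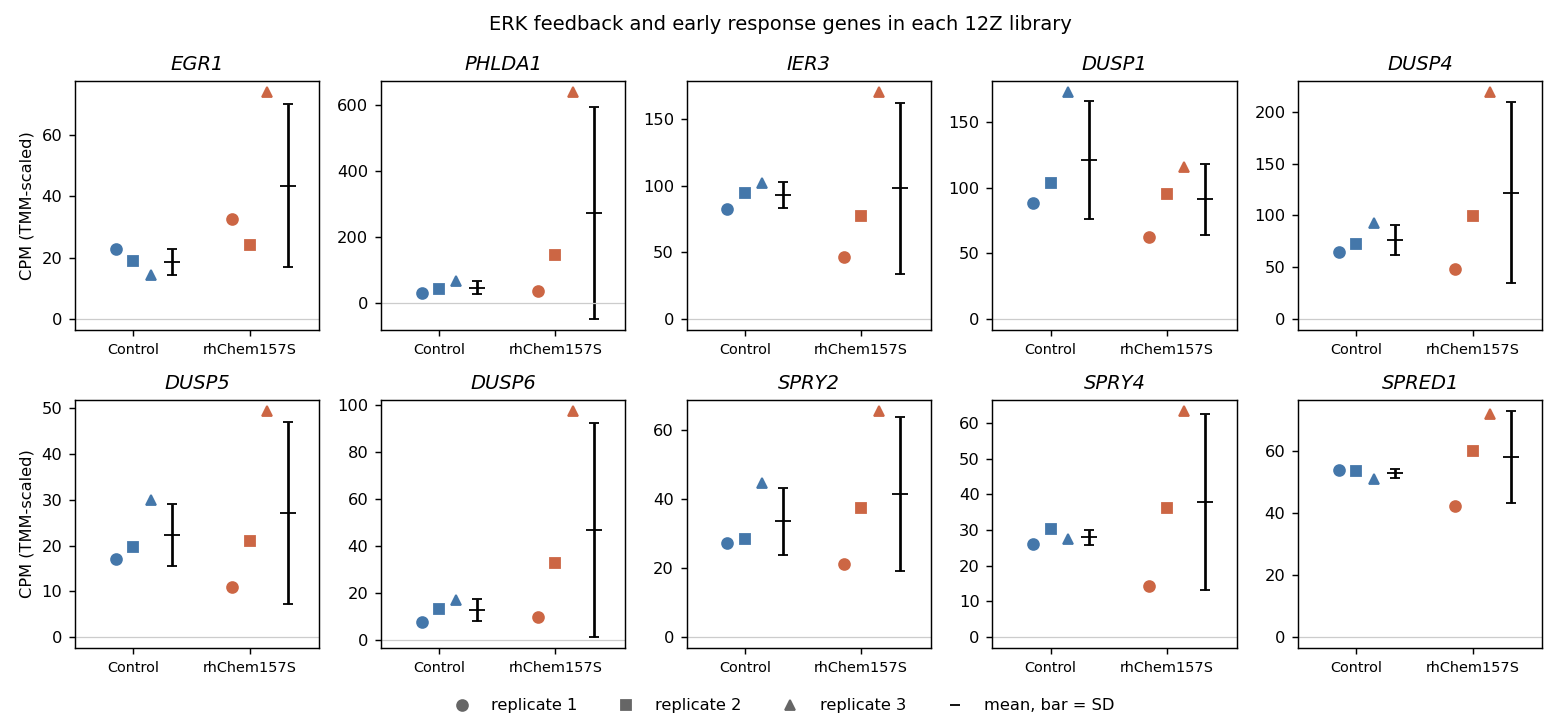
Level of each of the 10 genes in every 12Z library, as CPM scaled by TMM factors on a linear axis, with Control in blue, rhChem157S in orange, a symbol for each replicate number and the mean with SD (n = 3) beside the points. The triangle of rhChem157S replicate 3 is the highest point in 9 of 10 panels, DUSP1 being the exception, and the lower end of the PHLDA1 bar passes below 0 because the SD of 320.8 CPM exceeds the mean of 273.0 CPM.

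EGR1 encodes a zinc finger transcription factor and is the archetype of an immediate early gene. It lies on chromosome 5 (chr5:138465490-138469315, plus strand, GENCODE release 29 on GRCh38). The 3 Control libraries held 836, 734 and 537 counts, or 22.8, 18.9 and 14.2 CPM. In the rhChem157S libraries there were 1247, 847 and 2488 counts, or 32.5, 24.0 and 74.1 CPM. All 3 treated values lay above all 3 Control values, but rhChem157S replicate 2 exceeded the highest Control library by little and replicate 3 by a wide margin. The mean was 18.6 ± 4.27 CPM (SD, n = 3) in the Control group and 43.5 ± 26.8 CPM (SD, n = 3) in the rhChem157S group.

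The log2 fold change of EGR1 was 1.22 (SE 0.41, 95% interval 0.27 to 2.18, edgeR adjusted p = 0.154), and DESeq2 gave 1.22 with an adjusted p of 0.0222. Over all alternatives tried with edgeR, DESeq2 and limma the adjusted p ran from 0.00465 to 0.402, and the fold change stayed above 0. The DESeq2 call was lost without Control replicate 2 (adjusted p = 0.155), Control replicate 3 (0.169), rhChem157S replicate 1 (0.0968) or rhChem157S replicate 3 (0.0585, with a log2 fold change of 0.60). The separation of the groups depended on the scaling, since in FPKM (fragments per length of the gene, scaled by the library total alone) Control replicate 1 stood at 7.52 and rhChem157S replicate 2 at 7.44, so that the groups overlapped.

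The upstream sequence of EGR1 is shown with those of PHLDA1 and DUSP6, which had the largest fold changes, and of DUSP1, the only one of the 10 with a lower mean CPM. Each is the RefSeq window of GRCh38.p14 from 250 bases before to 50 after the annotated start, written 5′ to 3′ on the strand of the gene. Capitals mark matches, on either strand, to motifs of factors that ERK and cAMP signalling act through. They are the CArG box bound by serum response factor, CCGGAA for ETS factors (here called the ETS core) and the AP-1 site TGANTCA. The others are the cAMP response element TGACGTCA and its core TGACG, which the full element contains. CCGGAA is a strict form of the ETS site. The shorter GGAA was not searched, and it occurs in the EGR1 and DUSP6 windows.
EGR1 (chr5:138465229-138465528, plus strand): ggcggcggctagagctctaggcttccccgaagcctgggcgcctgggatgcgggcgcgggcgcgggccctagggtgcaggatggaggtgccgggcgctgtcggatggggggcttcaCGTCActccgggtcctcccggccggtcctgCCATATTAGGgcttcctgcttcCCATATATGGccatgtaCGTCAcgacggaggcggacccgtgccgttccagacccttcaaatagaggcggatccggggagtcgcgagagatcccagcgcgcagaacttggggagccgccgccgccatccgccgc
PHLDA1 (chr12:76031727-76032026, minus strand): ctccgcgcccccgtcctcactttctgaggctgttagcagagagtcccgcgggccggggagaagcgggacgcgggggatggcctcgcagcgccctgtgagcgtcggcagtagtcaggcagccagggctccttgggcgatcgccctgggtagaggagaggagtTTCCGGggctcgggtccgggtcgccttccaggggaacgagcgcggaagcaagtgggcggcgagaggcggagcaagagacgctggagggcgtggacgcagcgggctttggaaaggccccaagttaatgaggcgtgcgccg
DUSP6 (chr12:89352452-89352751, minus strand): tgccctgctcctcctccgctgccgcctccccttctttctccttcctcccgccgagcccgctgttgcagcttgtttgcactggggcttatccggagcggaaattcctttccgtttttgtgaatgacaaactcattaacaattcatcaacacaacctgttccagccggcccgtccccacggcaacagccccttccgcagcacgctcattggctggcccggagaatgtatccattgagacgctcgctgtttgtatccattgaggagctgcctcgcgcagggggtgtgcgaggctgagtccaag
DUSP1 (chr5:172771146-172771445, minus strand): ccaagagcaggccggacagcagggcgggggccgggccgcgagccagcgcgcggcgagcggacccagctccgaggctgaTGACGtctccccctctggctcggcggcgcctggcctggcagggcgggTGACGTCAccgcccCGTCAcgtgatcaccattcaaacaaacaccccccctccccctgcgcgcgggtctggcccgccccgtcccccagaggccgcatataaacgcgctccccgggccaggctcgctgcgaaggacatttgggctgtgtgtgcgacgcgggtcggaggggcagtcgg

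The EGR1 window held 2 CArG boxes, which begin 105 and 83 bases before the start, and 2 cores of the cAMP response element, 135 and 66 bases before it. CArG boxes occurred in 1.29% of the 35116 promoter windows of this length, and EGR1 was the only one of the members with a window to hold any. DUSP1 had 1 full cAMP response element 125 bases before the start, a motif of 1.85% of windows. It had 4 cores in all, a motif of 24.6%, with the palindromic full element counted once on each strand. In the PHLDA1 window there was 1 ETS core, 89 bases before the start, as in 17.2% of windows. The DUSP6 and SPRED1 windows held none of these letters. SPRY2 (in 1 of its 3 windows) had an ETS core and a core of the cAMP response element, SPRY4 had the latter alone, and the AP-1 letters, present in 7.71% of all windows, were in none of the 9 windows of the 7 genes matched. IER3, DUSP4 and DUSP5 had no entry. A match describes the letters and does not show that a factor binds there.

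PHLDA1 encodes a protein with a pleckstrin homology-like domain and is induced by growth factors. It had the largest fold change of the 10 genes and also the widest spread. The Control libraries held 1069, 1567 and 2525 counts, or 29.1, 40.4 and 66.9 CPM. The rhChem157S libraries held 1346, 5149 and 21417 counts, or 35.1, 145.9 and 637.9 CPM. Replicate 1 of the treated group lay inside the Control range, replicate 2 was 3.21 times the Control mean, and replicate 3 was 14.0 times that mean. The log2 fold change was 2.58 (SE 0.93, 95% interval 0.42 to 4.75, edgeR adjusted p = 0.170), and DESeq2 gave an adjusted p of 0.0891. Without rhChem157S replicate 1 the value was 3.09 (edgeR adjusted p = 0.0386) and without replicate 3 it was 0.99 (0.312), while over all alternatives the adjusted p ran from 0.00217 to 0.465. PHLDA1 (chr12:76025447-76033932, minus strand) has 8069 exon bases and shares some with the opposite-strand genes AC011611.3 and AC011611.4. The larger of these overlaps is 779 bases, and the bases shared with both together were not counted. The strand setting of the counting was not given in the sources used here.

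IER3, a small protein of the stress and growth factor response that is also a substrate of ERK, lies at chr6:30743199-30744554 on the minus strand and had group means of 93.2 and 97.9 CPM. Its counts were 3037, 3670 and 3859 in the Control libraries, against 1777, 2723 and 5719 in the treated ones. In CPM these were 82.7, 94.7 and 102.3 against 46.4, 77.2 and 170.3. The treated libraries thus lay on both sides of the Control range, with replicates 1 and 2 below it and replicate 3 above it. The log2 fold change was 0.07 (SE 0.42, 95% interval -0.90 to 1.04, edgeR adjusted p = 0.931), an interval that leaves room for a near doubling in either direction. Without rhChem157S replicate 3 it was -0.60, which DESeq2 called lower (adjusted p = 0.0342, in a range of 0.0342 to 0.995 over all alternatives), as it did 7.13% of all genes. Of its 1356 exon bases, 359 are shared with the opposite-strand gene IER3-AS1.

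Among the phosphatases, DUSP6 is cytoplasmic and acts on ERK in particular. It lies at chr12:89347232-89353271 on the minus strand. The Control libraries held 293, 509 and 655 counts (7.98, 13.1 and 17.4 CPM) and the rhChem157S libraries 378, 1166 and 3272 counts (9.86, 33.0 and 97.5 CPM). As for PHLDA1, treated replicate 1 was within the Control range, replicate 2 stood at 2.58 times the Control mean and replicate 3 at 7.60 times. DUSP6 had a log2 fold change of 1.87 (SE 0.73, 95% interval 0.15 to 3.59, edgeR adjusted p = 0.195, DESeq2 adjusted p = 0.169). It was 2.33 without rhChem157S replicate 1 (edgeR adjusted p = 0.0411) and 0.74 without replicate 3 (0.390), in a range of adjusted p from 0.00451 to 0.564 over all alternatives. The gene shares 1875 of its 4632 exon bases with the opposite-strand gene AC024909.2.

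DUSP4 and DUSP5 are nuclear phosphatases, of which DUSP5 is selective for ERK. DUSP4 (chr8:29333064-29350668, minus strand) had 2370, 2797 and 3493 counts in the Control libraries, against 1827, 3506 and 7365 in the treated ones, or 64.5, 72.2 and 92.6 against 47.7, 99.4 and 219.4 CPM. DUSP5 (chr10:110497838-110511544, plus strand) had 628, 767 and 1131 counts against 422, 744 and 1660, or 17.1, 19.8 and 30.0 against 11.0, 21.1 and 49.4 CPM. For both genes the lowest and the highest of all 6 libraries were treated ones, replicates 1 and 3. The log2 fold change was 0.68 (SE 0.48, 95% interval -0.45 to 1.80, edgeR adjusted p = 0.420) for DUSP4 and 0.28 (SE 0.50, 95% interval -0.89 to 1.46, edgeR adjusted p = 0.752) for DUSP5. Both turned negative without rhChem157S replicate 3, to -0.06 and -0.48.

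DUSP1, a nuclear phosphatase that acts strongly on the stress kinases p38 and JNK as well as on ERK, was the only gene of the 10 with a lower mean CPM after treatment, although IER3 and SPRED1 also had a lower mean in FPKM. It lies at chr5:172768090-172771195 on the minus strand. Its Control libraries held 3242, 4006 and 6528 counts (88.3, 103.4 and 173.0 CPM) and its rhChem157S libraries 2396, 3362 and 3896 counts (62.5, 95.3 and 116.0 CPM). Control replicate 3 was the highest of the 6 libraries, and the groups overlapped. The log2 fold change of DUSP1 was -0.41 (SE 0.30, 95% interval -1.12 to 0.29, edgeR adjusted p = 0.426), and it was -0.07 without Control replicate 3.

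The Sprouty and SPRED inhibitors had log2 fold changes of 0.14 to 0.44. SPRY2, an adaptor that interferes with growth factor receptor signalling to RAS, lies at chr13:80335976-80340951 on the minus strand and had 1008, 1101 and 1691 counts in the Control libraries, against 815, 1327 and 2205 in the treated ones. SPRY4, a related inhibitor at chr5:142310427-142326455 on the minus strand, had 956, 1173 and 1043 counts against 546, 1277 and 2130. SPRED1, which carries neurofibromin to the membrane to turn RAS off, lies at chr15:38252326-38357249 on the plus strand and had 1970, 2073 and 1923 counts against 1621, 2112 and 2408.

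In CPM, SPRY2 stood at 27.4, 28.4 and 44.8 in the Control libraries and at 21.3, 37.6 and 65.7 in the treated ones. SPRY4 stood at 26.0, 30.3 and 27.6 against 14.2, 36.2 and 63.4, and SPRED1 at 53.6, 53.5 and 51.0 against 42.3, 59.9 and 71.7. SPRY4 and SPRED1 were tight in the Control group, and treated replicate 1 lay below and replicates 2 and 3 above all the Control values for both. The log2 fold changes were 0.31 for SPRY2 (SE 0.39, 95% interval -0.61 to 1.22, edgeR adjusted p = 0.655), 0.44 for SPRY4 (SE 0.45, 95% interval -0.62 to 1.49, edgeR adjusted p = 0.574) and 0.14 for SPRED1 (SE 0.18, 95% interval -0.28 to 0.56, edgeR adjusted p = 0.667). Each was slightly negative without rhChem157S replicate 3, at -0.19, -0.16 and -0.05.

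**Figure D2:**
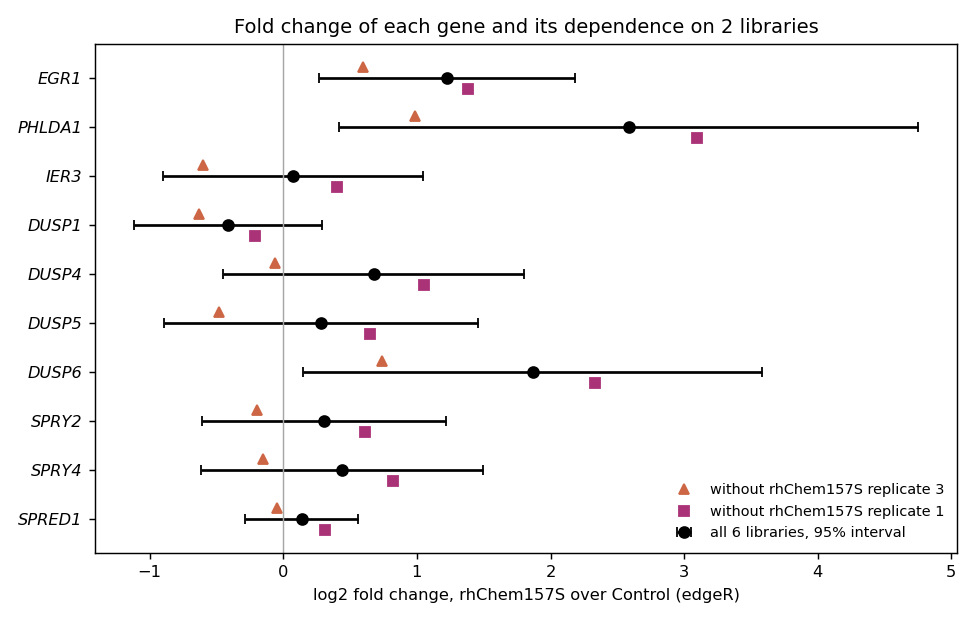
Log2 fold change of each gene, rhChem157S over Control, from edgeR with all 6 libraries (black, with 95% interval), without rhChem157S replicate 3 (orange triangles) and without rhChem157S replicate 1 (purple squares). The interval lies above 0 for EGR1, PHLDA1 and DUSP6, and leaving out replicate 3 moves all 10 genes down, 6 of them from above to below 0.

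The extremes of most of the 10 genes lay in the same treated libraries. Among the 6 libraries, rhChem157S replicate 3 was the highest for 9 of the 10 genes (90%), beside 34.1% of all genes tested. Replicate 1 of that group was the lowest for 7 of the 10 (70%), beside 13.7% of all genes, and 6 of the 10 (60%) had both, beside 7.26%. The exceptions were DUSP1, whose highest value was in Control replicate 3, DUSP6 and PHLDA1, whose lowest was in Control replicate 1, and EGR1, whose lowest was in Control replicate 3. Within the treated group alone, replicate 1 was the lowest for all but EGR1, whose lowest treated value was in replicate 2. Related lists showed the same in part. Replicate 3 of the treated group was the highest library for 66.7% of the other Sprouty, SPRED and feedback genes tested, 60% of the other immediate early genes and 75% of the delayed ERK-responsive genes, and replicate 1 was the lowest for 66.7%, 60% and 37.5% of them. The same shares were 40% and 20% for the other MAP kinase phosphatases and 30% and 10% for the EGF ligands and ERBB receptors. They were 53.3% and 0% for the ERK cascade and 50% and 25% for the ERK substrates. Relative to the Control mean, the median log2 level of the 10 genes was -0.24, -0.02 and 0.37 in the Control libraries, against -0.64, 0.29 and 1.19 in the treated ones, while the median of all genes stayed within 0.01 of 0 in each library. The median of the 10 genes thus rose from replicate 1 to replicate 3 in both groups. These shares and medians describe 6 libraries and were not tested.

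The spread within the treated group was accordingly wide. The SD of log2 CPM was larger in the rhChem157S group than in the Control group for 9 of the 10 genes, DUSP1 being the exception, beside 72.4% of all genes. Its median over the 10 genes was 1.01 in the rhChem157S group and 0.37 in the Control group, beside 0.21 and 0.12 over all genes. PHLDA1 had a treated SD of 2.09, which 0.270% of genes exceeded, and DUSP6 had 1.65, which 0.834% exceeded. DUSP4, SPRY4 and DUSP5 had SDs of 1.10, 1.09 and 1.08, IER3 0.95, EGR1 0.84 and SPRY2 0.81. SPRED1 and DUSP1, at 0.39 and 0.46, were closer to the rest of the transcriptome. In the Control group, the share of genes with a larger SD ran from 4.92% (PHLDA1), 5.69% (DUSP6) and 7.01% (DUSP1) to 88.7% (SPRED1).

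Other measures moved along with this order. As a list, the fibroblast and stromal markers ran the opposite way, with a median of 0.18, 0.00 and -0.18 relative to the Control mean in the Control libraries, against 0.45, -0.02 and -0.48 in the treated ones. Among them, COL3A1 had 143226, 130669 and 91982 counts in the Control group and 160790, 99403 and 55726 counts in the rhChem157S group. PDGFRA, of the same list, did not follow, with 13.6, 10.5 and 11.9 CPM in the Control group against 16.8, 17.3 and 27.8 CPM in the rhChem157S group (log2 fold change 0.79, edgeR adjusted p = 0.124, DESeq2 adjusted p = 0.0212). The TMM factor was lowest and the first principal component highest in rhChem157S replicate 3, where 9 of the 10 genes peaked. The part of these in the result was not tested. Without rhChem157S replicate 3 the median log2 fold change of the 10 genes was -0.11 and 2 of them had groups that did not overlap, 1 higher and 1 lower, beside 43.9% of all genes tested without that library. Without rhChem157S replicate 1 the median was 0.74, and 6 had groups that did not overlap, beside 49.8% of all genes. There edgeR called 2 of the 10 higher, DUSP6 and PHLDA1, beside 2.58% of all genes, and DESeq2 called 4 higher, these and DUSP4 and SPRY4, beside 9.37%.

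**Figure D3:**
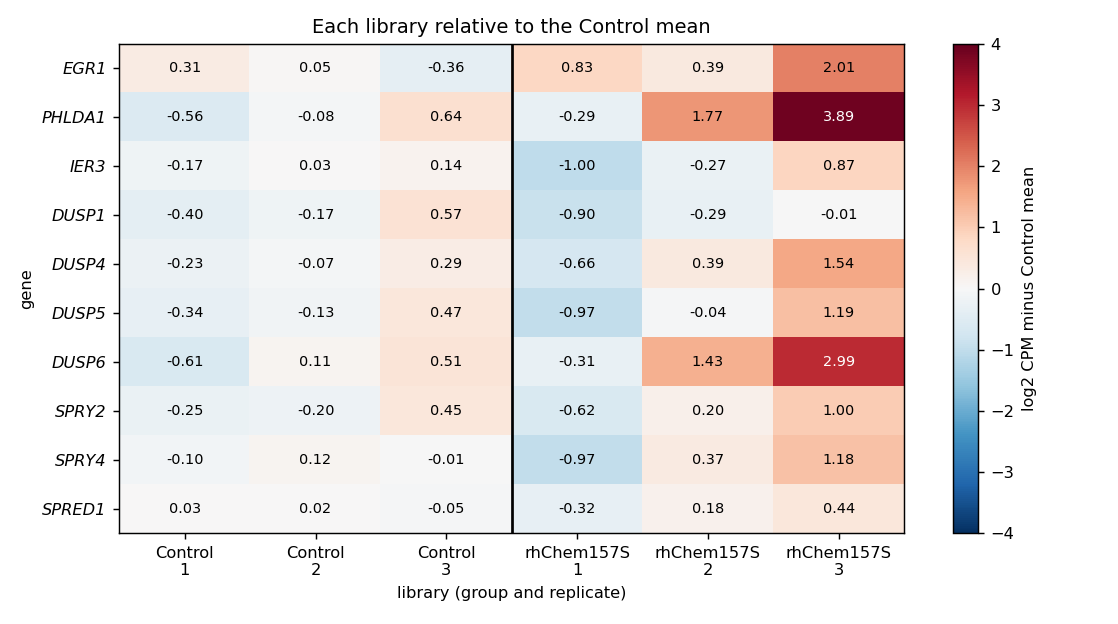
Log2 CPM of each of the 10 genes (rows) in each of the 6 libraries (columns), minus the mean of the 3 Control libraries, with red for higher and blue for lower values and the value printed in each cell. The column of rhChem157S replicate 3 is red for 9 genes, up to 3.89 for PHLDA1, and the column of replicate 1 is blue for 9 genes, EGR1 at 0.83 being the exception.

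Levels per length, as FPKM, allow the 10 genes to be set in order. In the Control group IER3 (78.9 ± 8.78 FPKM, SD, n = 3) and DUSP1 (63.2 ± 23.6) were the most abundant and did not differ beyond their spread. A gap separated them from DUSP4 (11.0 ± 2.11), SPRY2 (10.1 ± 2.96), DUSP5 (9.42 ± 2.89), PHLDA1 (8.05 ± 3.45), EGR1 (6.21 ± 1.39) and SPRED1 (6.20 ± 0.178), in which each overlapped with the next. SPRY4 (4.09 ± 0.347) and DUSP6 (3.70 ± 1.37) came last, with SPRY4 below every SPRED1 value. In the rhChem157S group IER3 (73.9 ± 44.6 FPKM) and DUSP1 (42.9 ± 10.7) were still first, followed by PHLDA1 (42.3 ± 48.1), DUSP4 (15.6 ± 10.5), EGR1 (13.01 ± 7.25), DUSP6 (11.9 ± 11.0), SPRY2 (11.2 ± 5.47), DUSP5 (10.2 ± 6.94), SPRED1 (6.18 ± 1.28) and SPRY4 (4.95 ± 2.98). There the ranges of all neighbours overlapped. DUSP6 went from rank 10 to rank 6 and PHLDA1 from rank 6 to rank 3.

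Genes of the pathway outside the 10 were grouped by role, and 0 genes of any such list had an adjusted p under 0.05 with edgeR. Upstream, the EGF family ligands and ERBB receptors had 10 of 12 members tested, their log2 fold changes had a median of -0.64, and 0 were called by DESeq2 in either direction. Of the fold changes 3 were above 0 and 7 below, several of them from genes of few counts. With a filter of at least 50 counts in 3 libraries the median was -0.26. EGF, a ligand of the EGF receptor, had 48, 70 and 62 counts in the Control libraries, against 46, 9 and 16 in the treated ones (log2 fold change -1.29, edgeR adjusted p = 0.227). AREG (amphiregulin), with 3 to 53 counts in any library, had a log2 fold change of -1.44 (edgeR adjusted p = 0.300). EGFR and ERBB2 were picked after their values were seen, as the receptors with the most counts. EGFR had 12724, 14891 and 14415 counts in the Control libraries, against 13375, 14821 and 22658 in the treated ones (log2 fold change 0.38, edgeR adjusted p = 0.353). ERBB2 had a log2 fold change of -0.04 (edgeR adjusted p = 0.848). The adaptors, RAS proteins and kinases from SHC1 to ERK numbered 15, with a median of 0.15. DESeq2 called 1 of them (6.67%), the GTPase NRAS, higher, beside 4.58% of all genes called higher. NRAS had 4029, 4174 and 3934 counts against 4955, 4496 and 5229 (log2 fold change 0.36, edgeR adjusted p = 0.120, DESeq2 adjusted p = 0.0344).

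Of 8 ERK substrates, with a median of 0.20, DESeq2 called 1, RPS6KA1, lower beside 6% of all genes called lower. RPS6KA1 encodes the kinase RSK1 and had 3995, 4519 and 4029 counts in the Control libraries, against 2979, 3171 and 2866 in the treated ones (log2 fold change -0.39, edgeR adjusted p = 0.0929, DESeq2 adjusted p = 0.00436). The groups did not overlap for this gene. Of the other MAP kinase phosphatases, 5 of 6 were tested and had a median of -0.71. DESeq2 called 1 of the 5 lower, DUSP8, a phosphatase of JNK and p38, again beside 6% of all genes. DUSP8 had 989, 913 and 940 counts in the Control libraries against 546, 419 and 291 (log2 fold change -1.12, edgeR adjusted p = 0.0707). Among the other Sprouty, SPRED and feedback genes, 6 of 7 were tested, the median was 0.11 and 0 were called by DESeq2. The pair with the smallest p there, IL17RD at -0.33 and SPRED2 at 0.16 on the log2 scale, had edgeR adjusted p of 0.554 and 0.600.

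The other immediate early genes split in direction. Of 22 listed, 20 passed the filter, and their log2 fold changes had a median of 0.24, with 12 above 0 and 8 below. DESeq2 called ZFP36, which encodes an mRNA decay factor, higher (1100, 1283 and 1145 counts against 1415, 1429 and 1591, log2 fold change 0.42, DESeq2 adjusted p = 0.0365). It called BTG2, an antiproliferative gene that p53 induces, lower (693, 1197 and 899 counts against 649, 502 and 238, log2 fold change -0.94, DESeq2 adjusted p = 0.0414). ATF3, a stress-induced transcription factor, was also called lower, with 416, 690 and 578 counts against 246, 262 and 247 (log2 fold change -1.07, edgeR adjusted p = 0.0752). DESeq2 thus called 1 of the 20 higher, beside 4.58% of all genes, and 2 lower, beside 6%. FOS and EGR3 were picked after their values were seen, as a classical ERK target and the other EGR gene tested. FOS had a log2 fold change of -0.05 (95% interval -0.65 to 0.54) and overlapping groups. EGR3 had few counts, 2, 11 and 12 against 20, 14 and 34, in groups that did not overlap (log2 fold change 1.53, edgeR adjusted p = 0.237). Without rhChem157S replicate 3 the median was -0.21, and that of the other Sprouty, SPRED and feedback genes was -0.055, which was also below 0 with limma and with library totals as the only scale. EGR4 was not analysed here.

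Delayed ERK-responsive genes had the highest median of the lists, 0.62 over 8 genes, 7 of them above 0, and 0 were called by DESeq2. The smallest p were those of ETV1, an ETS factor at 0.46, and PLAUR, the urokinase receptor at 1.20 on the log2 scale (edgeR adjusted p = 0.188 and 0.219). FOSL1 and CCND1 were picked after their values were seen, for their likeness to PHLDA1. FOSL1, the AP-1 subunit FRA1, had 1750, 2696 and 5542 counts in the Control libraries, against 2211, 7268 and 20242 in the treated ones (log2 fold change 1.71, edgeR adjusted p = 0.245). CCND1, cyclin D1, had 40, 64 and 162 counts against 44, 191 and 1089 (log2 fold change 2.47, edgeR adjusted p = 0.235). Replicate 3 of the rhChem157S group was the highest library for both, and the groups overlapped. The list's median relative to the Control mean was -0.24, -0.06 and 0.30 in the Control libraries, against -0.52, 0.95 and 0.94 in the treated ones.

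**Figure D4:**
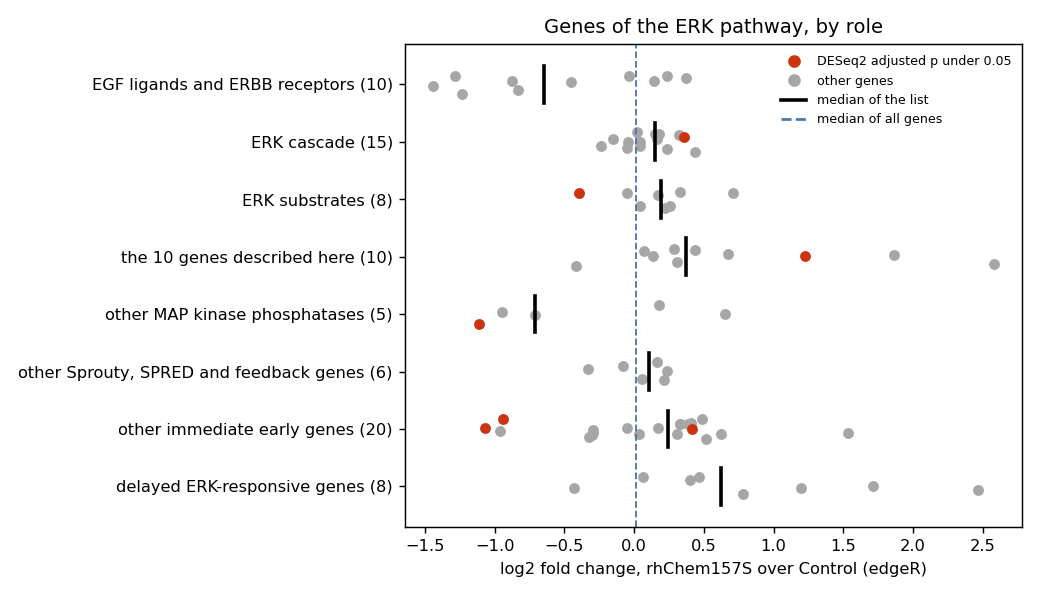
Log2 fold change (rhChem157S over Control, edgeR) of the tested genes of each ERK pathway list, 1 point a gene, with the list's median as a black bar, the median of all genes as a dashed line and genes with a DESeq2 adjusted p under 0.05 in red. Medians run from -0.71 for the other MAP kinase phosphatases to 0.62 for the delayed ERK-responsive genes, and red points are few in each list.

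Chemerin acts through CMKLR1 and GPR1, both G protein-coupled receptors, and binds CCRL2, which presents it to cells. CMKLR1 had 3 to 25 counts and CCRL2 2 to 36 counts in any library. GPR1 had 169, 180 and 207 counts in the Control libraries, against 341, 281 and 355 in the treated ones (log2 fold change 0.90, edgeR adjusted p = 0.0824), and DESeq2 called it higher. RARRES2, the gene of chemerin itself, had 775, 826 and 1023 counts against 397, 271 and 372 (log2 fold change -1.26, edgeR adjusted p = 0.0692), and DESeq2 called it lower. Between the highest and the lowest rhChem157S library GPR1 differed 1.33-fold and RARRES2 1.44-fold, while the 10 genes differed from 1.70-fold (SPRED1) to 18.2-fold (PHLDA1). CMKLR1 and CCRL2, with few counts, differed 4.55-fold and 15.4-fold, inside the range of the 10 genes.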

How the data were processed

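Total RNA of 12Z cells was sequenced from 6 libraries, 3 per group. The authors trimmed reads with fastp, aligned them to GRCh38.p13 with HISAT2 and took gene counts from HTSeq-count, and the submitters' notes also name DESeq2 and R 3.2.0. The deposited count table is not normalized. The authors also deposited FPKM of the same genes, which matched the counts within 1% in 79491 of 79491 values checked. The annotation release and the strand setting were not given in the sources used here. Dose and time are from the study's methods.

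The main test was that of edgeR 4.0.16 in R 4.3.3 (TMM, filterByExpr with the group, quasi-likelihood test, Benjamini-Hochberg over 13311 genes). Called means an adjusted p under 0.05. Alternatives were DESeq2 1.42.0 on the same genes, limma-trend (limma 3.58.1) on log2 FPKM with a pseudocount of 1 or 0.1, other edgeR settings, scalings and filters, a block for the replicate number, and the removal of 1 library at a time. Levels relative to the Control mean are log2 CPM with a prior count of 2. With 3 libraries a group, an exact two-sided permutation test cannot go below p = 0.10. Depth of 35430881 to 38341643 counts limits only the genes of few counts.

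The 10 genes and the lists were chosen with earlier results of these data known. From each list the text names genes that edgeR or DESeq2 called, or else the 2 of smallest p, beside marker genes and those said to be picked after their values were seen. Positions are from GENCODE release 29 and promoters from RefSeq (GRCh38.p14, 7 of the 10 genes matched). Near-identical transcripts (at least 95% over 150 bases, BLAST 2.17.0) were found only in the opposite-strand genes named.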

Additional observations from a re-analysis of the deposited data

How the results depend on the processing

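The number of genes called depended on the tool. It was 4 with edgeR, and 1407 with DESeq2, 179 with limma on log2(FPKM + 1), 23 with limma on log2(FPKM + 0.1), 15 with edgeR's legacy=FALSE and 17 without a filter. Leaving out a library gave 0 to 844 genes with edgeR and 300 to 2704 with DESeq2. Of the 10 genes, DESeq2 called 1, and leaving out a library gave 0 to 2 with edgeR and 0 to 4 with DESeq2, the highest of each without rhChem157S replicate 1. Of the genes of the pathway lists edgeR called 0, DESeq2 8, limma 4 and 1 with pseudocounts of 1 and 0.1, and leaving out a library gave 0 to 10 with edgeR and 4 to 23 with DESeq2. Groups did not overlap for 1 of the 10 in CPM, 0 in FPKM and 0 with library size as the scale, where the median of all genes moved to -0.12, and for 1 to 6 without a library. The median log2 fold change of the 10 genes was 0.37, and -0.11 to 0.74 without a library, 0.08 and 0.07 with limma at pseudocounts of 1 and 0.1, and 0.21 with library size only.

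EGR1, PHLDA1, DUSP6 and DUSP1 kept their direction under all 23 alternatives tried. The 6 others reversed in some. With limma, DUSP5, SPRED1 and IER3 were at -0.046, -0.020 and -0.26 (pseudocount 1) and -0.068, -0.026 and -0.26 (0.1). With library size only, SPRED1 was at -0.0045 and IER3 at -0.094. Leaving out a library, with edgeR or DESeq2, gave -0.060 to 1.05 for DUSP4, -0.48 to 0.66 for DUSP5, -0.19 to 0.62 for SPRY2, -0.16 to 0.83 for SPRY4, -0.049 to 0.32 for SPRED1 and -0.60 to 0.40 for IER3, the lowest in each case without rhChem157S replicate 3. The cause was not tested.

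Whether the replicate numbers pair the libraries could not be told. The deviations of same-numbered libraries correlated at 0.24, 0.00 and 0.25, against -0.31 to 0.11 for libraries of different number. Control replicates 1 and 3 correlated best with the treated library of the same number, while Control replicate 2 correlated best with rhChem157S replicate 1. With the replicate block edgeR called 1 gene and DESeq2 1510. Of the 10 genes DESeq2 then called 1, DUSP1 (adjusted p = 0.0458), and of the pathway lists 14 genes, while the adjusted p of EGR1 was 0.272 and IER3 was at -0.13 with edgeR and -0.14 with DESeq2. The block gave the 10 genes a median of 0.21 with edgeR and 0.19 with DESeq2.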
